A study of Mus musculus with 6 samples.

Results

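The nuclear-encoded subunits of the mitochondrial respiratory chain were followed in cultured mouse hepatocytes given tumour necrosis factor alpha (TNFα), an inflammatory cytokine. The members were all genes whose symbol in the array's probe annotation begins with 1 of 16 prefixes of subunit names, from Ndufa and Ndufb to Sdha, Uqcr, Cox4 and Atp5. This gave 91 genes of the 19057 genes named on the array, read by 142 probes. Of these, 84 had a probe bright enough to be tested, among 13438 genes tested in all. They were 71 subunit genes, 11 assembly factors that share the prefixes (Ndufaf and Sdhaf genes), the supercomplex factor Cox7a2l and the pseudogene Ndufs5-ps.

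The cells were liver hepatocytes of male C57Bl/6J mice in primary culture. Every group was kept on collagen in Williams' E medium, with insulin at 1 nM, dexamethasone at 50 nM and fetal calf serum at 5%. Of the 6 Illumina arrays, 2 held untreated cells, 2 held cells given 2 ng/mL recombinant murine TNFα for 2 hours, and 2 held cells given the same dose for 2 days. The labels do not say whether the 2 arrays of a group came from separate mice or cultures, so a p-value here speaks only of array-to-array spread, part or all of which may be technical. They also give no time in culture for the untreated cells, so at 2 days exposure and time in culture cannot be told apart.

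The respiratory chain passes electrons from NADH (through complex I) and succinate (through complex II) to ubiquinone, then through complex III and cytochrome c to complex IV, which reduces oxygen. Complexes I, III and IV pump protons across the inner mitochondrial membrane, and complex V, the ATP synthase, uses that gradient to make ATP. Nearly all of the subunits are encoded in the nucleus and imported, while a small core is encoded by mitochondrial DNA. Hepatocytes are rich in mitochondria and use this ATP for the synthesis of urea, glucose and plasma proteins.

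Values are array intensities on the deposited linear scale, and changes are log2 fold changes of intensity with the standard error (SE) of a limma fit over all 13438 genes. A gene was called when its Benjamini-Hochberg adjusted p was under 0.05. Over the members the arrays correlated at 0.997 to 0.999 within a group and at 0.995 to 0.998 between groups. The SE of a member's change lay between 0.098 and 0.144. The smallest change called among all genes was 0.36 at 2 hours, 0.30 at 2 days and 0.29 between the times, in either direction. Shifts smaller than these were not called for any single gene in this fit and are not read as absent.

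At 2 hours of TNFα no respiratory chain gene was called. By limma 0 of 84 members were called, where 2.82% of all genes were (1.76% higher and 1.06% lower), and 3 members had an unadjusted p under 0.05, where 11.8% of all genes did. Member changes ranged from -0.27 to 0.27 on the log2 scale, with a median of 0.03 (all genes -0.01). The smallest adjusted p of any member was 0.261, for Ndufb2. Values above 0 were held by 53 members (63.1%; 46.4% of all genes) and values below 0 by 31. This lean depended on 1 untreated array: the members' median relative to that of all genes was 0.04, but 0.005 without untreated replicate 2, with 43 members below 0, and 0.09 without untreated replicate 1, with 29 below 0. Arrays of 2 hour and untreated cells were fully separated for 29 members (34.5%; 40.4% of all genes), 21 of them higher (25%; 18% of all genes) and 8 lower (9.52%; 22.4% of all genes).

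The 2 members furthest from 0 at 2 hours were Ndufb2 and Atp5g2. Ndufb2, an accessory subunit of the membrane arm of complex I, had intensities of 253 and 235 in 2 hour cells, against 317 and 273 in untreated cells (log2 -0.27, SE 0.11). Atp5g2, 1 of the genes for the rotating c ring of the ATP synthase, had 2325 and 2088 in 2 hour cells, against 1838 and 1826 in untreated cells (log2 0.27, SE 0.12). For both genes the 2 hour arrays lay wholly on 1 side of the untreated arrays, yet neither was called (limma adjusted p = 0.261 and 0.330).

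In each of the 5 complexes the furthest members were likewise not called. In complex I the highest change was that of Ndufc1 (0.23). In complex II the assembly factor Sdhaf1 (0.19) was highest and Sdhd (-0.24), a membrane anchor of succinate dehydrogenase, lowest. In complex III all 6 tested members stayed between Uqcrc2 (-0.05) and Uqcrh (0.10). Complex IV ran from Ndufa4 (-0.19), which was named for complex I and is now counted as a complex IV subunit, to Cox7a2 (0.23). The lowest complex V gene was Atp5a1 (-0.18), the alpha subunit of the catalytic head.

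**Figure D1:**
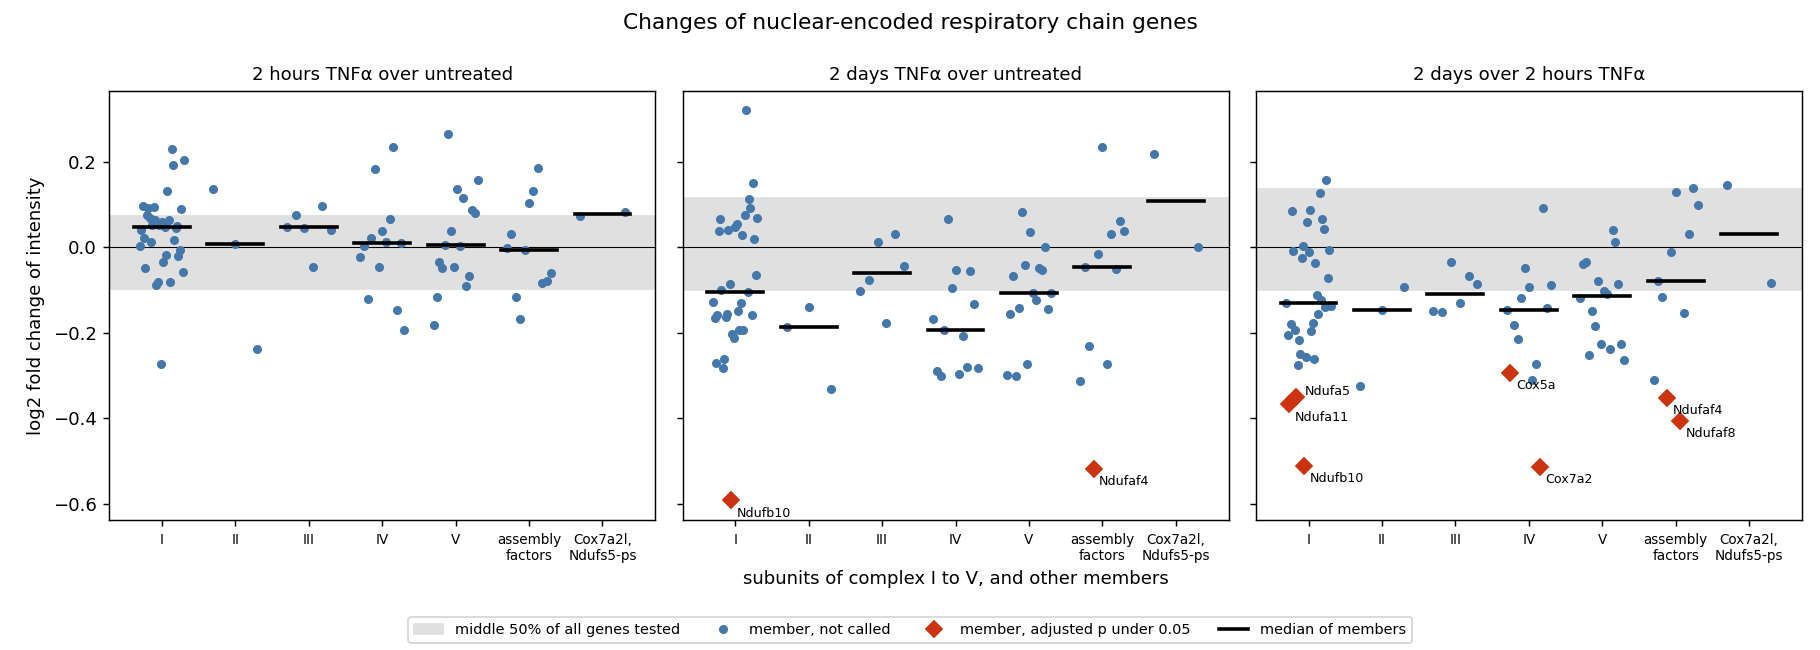
Log2 fold change of each of the 84 tested members (points; diamonds are called at adjusted p under 0.05) in the 3 comparisons, by complex, with the median of each complex or group (black lines) and the middle 50% of all 13438 genes (grey band). No member is called at 2 hours, 2 are called at 2 days and 7 between the times, and the median over all 84 members is 0.03, -0.11 and -0.12.

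After 2 days 2 members fell and 0 rose by limma. Ndufb10, an accessory subunit of the membrane arm of complex I, had intensities of 749 and 636 in 2 day cells, against 1048 and 1034 in untreated cells. Its mean was 693 ± 79.8 in 2 day cells and 1041 ± 10.6 in untreated cells (SD, n = 2 each), a log2 change of -0.59 (SE 0.11, limma adjusted p = 0.000232). Ndufaf4, a factor needed to assemble complex I, had 1334 and 1222 in 2 day cells, against 1867 and 1790.2 in untreated cells (log2 -0.52, SE 0.10, limma adjusted p = 0.000878). Both genes were lower in each 2 day array than in either untreated array, and both also had lower intensities than in the 2 hour arrays.

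The 2 calls among 84 members come to 2.38%, against 12.7% of all genes called at 2 days (6.74% higher and 5.92% lower). An unadjusted p under 0.05 was reached by 20 members, 3 higher and 17 lower, and by 22.8% of all genes. The dimmer probe of Ndufb10 did not show the fall, at 254 and 319.9 in 2 day cells, against 294 and 304 in untreated cells (log2 -0.07, adjusted p = 0.827 in the fit of every probe). That of Ndufaf4 gave -0.22 (adjusted p = 0.193). The calls of both genes held under 19 of 20 alternative settings and were lost after a normexp background correction, with which 0 members were called. The number of members called lower was 8 after cyclic loess, and 5 with an offset of 16 or when probes of a gene were averaged. Of all genes 829, 814 and 633 were then called lower, against 795 in the main fit.

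**Figure D2:**
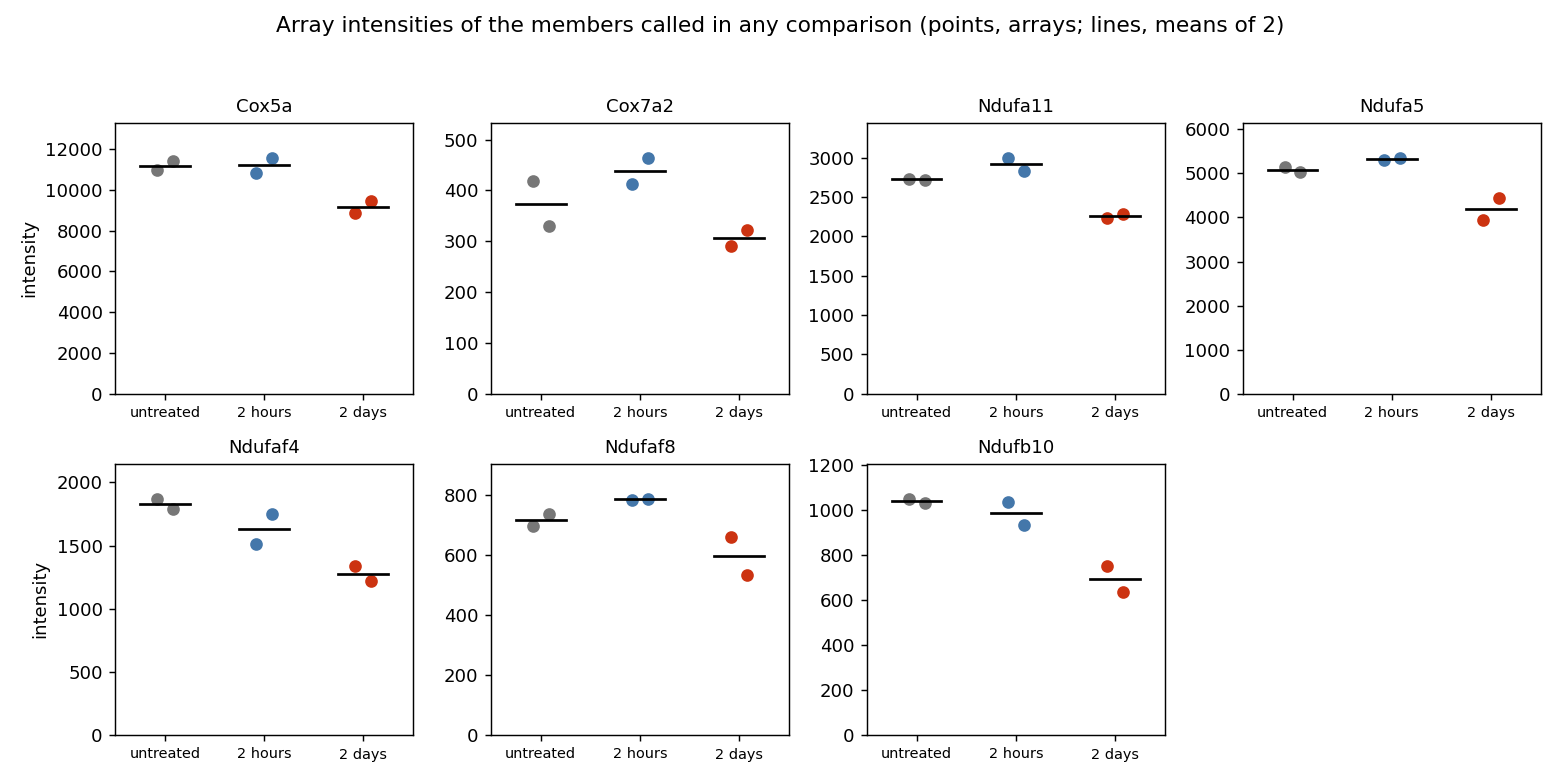
Intensity in every array of the 7 members called in any comparison, with untreated, 2 hour and 2 day cells from left to right (points are arrays, lines are means of 2, and each axis starts at 0). In all 7 genes both 2 day arrays lie below both 2 hour arrays, and Ndufb10 and Ndufaf4 are also called against untreated cells.

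Further members lay just short of the threshold, most of them with lower values. Between adjusted p = 0.0519 and 0.0921 by limma stood 12 genes of the 84, which are not called here. Of all 13438 genes, 1182 were higher and 1000 lower at adjusted p under 0.1, called genes included. The number of near misses is therefore not read as a trait of the members. Only 1 of them was higher, Ndufc2, a membrane arm subunit of complex I, with 6638 and 6671 in 2 day cells, against 4776 and 5946 in untreated cells (log2 0.32, adjusted p = 0.0519). The 11 others had lower values, between -0.26 and -0.33. For each of the 12 genes the 2 day arrays were separated from the untreated arrays, where 49.6% of all genes were. The 12 were picked by p in this same comparison, so the separation adds no support.

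These 11 came from 4 complexes. In complex I they were the accessory subunits Ndufa5 (-0.28), Ndufa6 (-0.26) and Ndufa11 (-0.27), together with the assembly factor Ndufaf1 (-0.31). In complex II it was Sdhd (-0.33), with intensities of 289 and 325 in 2 day cells, against 444 and 336 in untreated cells. In complex IV they were Cox5a (-0.29), Cox5b (-0.30) and Ndufa4 (-0.28), all parts of the common, non-tissue-specific enzyme. Cox5b had 12313 and 12175 in 2 day cells, against 14336 and 15861 in untreated cells. A dimmer probe of Cox5b did not show the lower level (log2 0.03, adjusted p = 0.934 in the fit of every probe). That probe had 3697 and 3156 in 2 day cells, against 3363 and 3337 in untreated cells. In complex V they were Atp5d (-0.30), the delta subunit of the central stalk, Atp5a1 (-0.30) and the peripheral stalk subunit Atp5h (-0.27). Atp5d had 4016 and 3767 in 2 day cells, against 4608 and 4983 in untreated cells. The dimmer probes of Ndufa5 and Atp5a1 lay near 0, at 0.07 and -0.01.

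Across all 84 members the changes at 2 days leaned downward. The median was -0.11 on the log2 scale, against 0.01 for all genes, and 59 members (70.2%) had a value below 0, against 48.3% of all genes. Arrays of 2 day and untreated cells were fully separated for 41 members (48.8%; 49.6% of all genes), 34 of them lower (40.5%; 23.5% of all genes) and 7 higher (8.33%; 26.1% of all genes). The members share arrays, so these shares are a description and were not tested. Many members are bright: 52 of the 84 stand among the 1343 brightest genes, of which 45.4% of genes had a value below 0, with a median of 0.03. The 52 members among them had a median of -0.10, and 34 had a value below 0. Of the 1343 brightest genes 26.7% were called at 2 days, and of these 52 members 0 were. Arrays were fully separated for 62.5% of the brightest genes and for 53.8% of the 52 members.

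The lean rested partly on which untreated array was used. The 2 untreated arrays differed, with a median over the members of 0.063 in replicate 1 and -0.011 in replicate 2, as log2 distance from each gene's mean over the 6 arrays. The 2 hour arrays gave 0.050 and 0.043, and the 2 day arrays -0.077 and -0.049. Without untreated replicate 1 the members' median at 2 days, relative to that of all genes, was -0.05 and 52 members were below 0, and without untreated replicate 2 it was -0.15 and 66 were below 0. With all arrays it was -0.11, and under the other scalings, variance models and probe rules it stayed between -0.14 and -0.09.

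**Figure D3:**
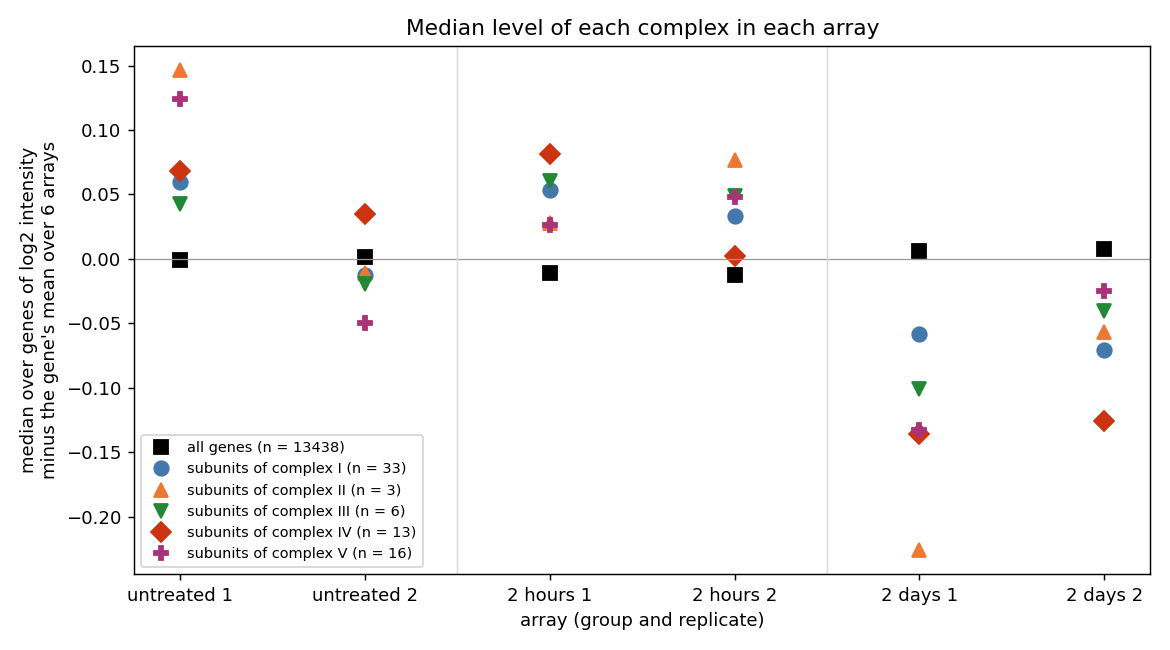
Median over genes of the log2 intensity minus the gene's own mean over the 6 arrays, for each array and each complex, with all 13438 genes as black squares. Both 2 day arrays lie below 0 for all 5 complexes, and untreated replicate 1 lies above replicate 2 for all 5.

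By complex, the medians at 2 days lay between -0.19 and -0.06. Complex IV had the lowest median of the 3 complexes with over 6 tested subunits, at -0.19 over 13 tested subunits. Of these, 12 were below 0 (92.3%; 48.3% of all genes) and 5 had an unadjusted p under 0.05, as did 22.8% of all genes. By limma 0 were called, where 12.7% of all genes were. The 13 include 4 isoforms made mainly in other tissues. Among these, Cox6a2, Cox8b and Cox6b2 had intensities that cannot be told from background. Complex V had a median of -0.11 over 16 subunits, with 13 below 0 (81.2%). Complex I had a median of -0.10 over 33, with 20 below 0 (60.6%) and 1 called (3.03%). Complex III, the cytochrome bc1 complex, had a median of -0.06 over 6 subunits, from Uqcrc2 (-0.18) to Uqcrh (0.03). These 6 leave out its subunit Cyc1, whose symbol lies outside the prefixes. Cyc1 was called lower at 2 days and is described further below. The 3 tested subunits of complex II were at -0.14 (Sdhc, a membrane anchor), -0.19 (Sdhb, the iron-sulfur subunit) and -0.33 (Sdhd). Differences between complexes were not tested.

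Within complex I the core subunits, some of which carry the flavin and iron-sulfur centres, gave no call. The 5 tested core genes Ndufs3, Ndufs7, Ndufs8, Ndufv1 and Ndufv2 lay between -0.16 (Ndufs7) and 0.15 (Ndufs8), with a median of -0.06 and 0 called or at an unadjusted p under 0.05 by limma. Ndufv1, which holds the NADH-binding site, had 5735 and 5512 in 2 day cells, against 5607 and 5486 in untreated cells. The 28 accessory subunits had a median of -0.13 and ranged from -0.59 to 0.32.

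The 7 tested complex I assembly factors had a median of -0.23, with 6 below 0 (85.7%; 48.3% of all genes). Of the 7, 1 was called (14.3%; 12.7% of all genes), a share near that of all genes and not read as a trait. Besides Ndufaf4 and Ndufaf1, 3 more had unadjusted p under 0.05, as did 22.8% of all genes. They were Ndufaf8 (-0.27), Ndufaf3 (-0.23) and, with a value above 0, Ndufaf7 (0.23), a methyltransferase acting on the complex. The 4 complex II assembly factors lay between -0.05 (Sdhaf2) and 0.06 (Sdhaf3), and 0 had an unadjusted p under 0.05 by limma.

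In the ATP synthase the F1 part (catalytic head and central stalk) was described apart from the membrane and peripheral stalk genes. All 5 tested F1 genes had values below 0, with a median of -0.15. The beta subunit Atp5b had 31789 and 32306 in 2 day cells, against 34743 and 36643 in untreated cells (log2 -0.15, limma adjusted p = 0.395). Probes this bright may be compressed at the top of the scale. The 11 membrane and peripheral stalk genes had a median of -0.05, from Atp5h (-0.27) to Atp5g2 (0.08), with 8 below 0.

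Several complex IV subunits have isoforms made mainly in other tissues. Of 7 such genes, Cox4i2 (lung), Cox7b2 and Cox8c (testis) had no bright enough probe. Cox6a2 and Cox8b (heart and skeletal muscle) and Cox6b2 (testis) passed with intensities from 121 to 157 in all arrays, close to the array medians of 143, so their levels cannot be told from background here. Cox7a1, also a muscle isoform, had 183 and 236 in 2 day cells, against 236 and 244 in untreated cells, which is a log2 change of -0.21 and not a call (limma adjusted p = 0.287). Cox7a2l, counted apart from the complex IV subunits, had 5923 and 5461 in 2 day cells, against 4976 and 4803 in untreated cells (log2 0.22, limma adjusted p = 0.202).

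The other members without a tested probe were the core genes Ndufs1, Sdha and Uqcrfs1 and the assembly factor Ndufaf6. The probes of all 7 untested members had intensities between 108 and 149. The probe of albumin (Alb), an abundant hepatocyte product, was little brighter, with means of 145 in 2 day cells and 159.8 in untreated cells. A dim probe on these arrays is therefore not read as absence of the RNA.

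Between 2 hours and 2 days of TNFα 7 members fell and 0 rose by limma. Cox7a2, a small subunit of complex IV, had 290.0 and 323 in 2 day cells, against 412 and 464 in 2 hour cells (log2 -0.51, SE 0.11, limma adjusted p = 0.00213). Ndufb10 had 749 and 636 in 2 day cells, against 1037 and 933 in 2 hour cells (log2 -0.51, SE 0.11, limma adjusted p = 0.00107). For both, each 2 day array was lower than each 2 hour array.

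The remaining 5 were 3 subunits and 2 assembly factors. The membrane arm subunit Ndufa11 had 2232 and 2291 in 2 day cells, against 2999 and 2836 in 2 hour cells (log2 -0.37). Ndufa5, a subunit of the peripheral arm, had 3935 and 4446 in 2 day cells, against 5316 and 5351 in 2 hour cells (log2 -0.35). Its dimmer probe did not show the fall, at 222 and 244 in 2 day cells, against 229 and 231 in 2 hour cells (log2 0.02, adjusted p = 0.958 in the fit of every probe), and with the probes averaged the change was -0.17 and not a call. Cox5a, which sits on the matrix side of complex IV, had 8856 and 9459 in 2 day cells, against 10859.6 and 11578 in 2 hour cells (log2 -0.29). The limma adjusted p was 0.0105 for Ndufa11, 0.0175 for the brighter probe of Ndufa5 and 0.0483 for Cox5a, and in each both 2 day arrays were the lower ones.

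Of the assembly factors, Ndufaf8 had 659 and 531 in 2 day cells, against 783 and 785 in 2 hour cells (log2 -0.41, limma adjusted p = 0.010). Ndufaf4 had 1334 and 1222 in 2 day cells, against 1515 and 1751 in 2 hour cells (log2 -0.35, limma adjusted p = 0.0211). Both were lower in each 2 day array. The 7 calls are 8.33% of members, against 15.3% of all genes called between the times (8.63% higher and 6.67% lower). After cyclic loess there were 12 and after normexp 0. Of all genes 989 and 397 were then called lower, against 896 in the main fit. Ndufb10 was called without any 1 array. Cox7a2 lost its call without 2 hour replicate 2, Ndufa11 without 2 hour or 2 day replicate 1, and Ndufaf4 without 2 hour or 2 day replicate 2. Ndufaf8 lost it without either 2 hour array or 2 day replicate 2, Ndufa5 without either 2 hour array or 2 day replicate 1, and Cox5a without any of the 4 and also with the replicate number as a block (adjusted p = 0.0572). Over all 20 alternatives the change of Cox5a stayed between -0.34 and -0.25 and that of Ndufa5 between -0.44 and -0.17.

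The comparison between the times uses the same 2 day arrays as that against untreated cells, so the 2 are not independent. Its median over the members was -0.12, against 0.01 for all genes, and 68 members (81.0%) had a value below 0, against 46.7% of all genes, while 16 had a value above 0, against 53.3% of all genes. Arrays of the 2 times were fully separated for 49 members (58.3%; 52.8% of all genes), 46 of them lower (54.8%; 23.4% of all genes) and 3 higher (3.57%; 29.4% of all genes). All 6 tested members of complex III had values below 0, from Uqcr11 (-0.15) to Uqcrc1 (-0.03). By limma 0 of the 6 were called or had an unadjusted p under 0.05. The complex III subunit Cyc1, outside the prefixes and not among the 6, was called lower. The furthest of complex II was Sdhb, with 1952 and 1542 in 2 day cells, against 2078.5 and 2269.7 in 2 hour cells (log2 -0.32, limma adjusted p = 0.0506). In complex V it was Atp5pb, the b subunit of the stalk (-0.26, adjusted p = 0.0752). The highest values were those of Ndufs8 (0.16), Cox7a2l (0.15), Sdhaf3 (0.14) and, in complex V, Atp5l (0.04).

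Probes of the same gene did not always move together. Of 27 members with several passing probes, 11 had all probes on the same side of 0 at 2 days. Some dimmer probes lay near the array medians of 143, such as 1 of Sdhb (mean 144) and 1 of Ndufb11 (mean 145). The side of 0 says little for such probes, and the share over all genes was not computed. For Ndufv3, an accessory subunit of complex I, the brightest probe had 5807 and 7762 in 2 day cells, against 6382 and 6428 in untreated cells (log2 0.07). A second probe had 4175 and 4083 in 2 day cells, against 5795 and 5761 in untreated cells (log2 -0.48, SE 0.10, adjusted p = 0.00108 in the fit of every probe). The first probe's groups overlapped and the second's did not.

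A second probe was higher for Atp5j, the F6 subunit of the ATP synthase stalk. Its brightest probe gave 0.04, while a dimmer one had 665 and 827 in 2 day cells, against 528 and 594 in untreated cells (log2 0.41, SE 0.11, adjusted p = 0.0165 in the fit of every probe). A second probe of Cox6a1 was also lower, at 8155 and 8476 in 2 day cells, against 9841 and 11429.7 in untreated cells (log2 -0.35, adjusted p = 0.0284), where the brightest probe gave -0.19 and was not called. Between the times the fit of every probe called 10 members lower. It added a second probe of Ndufv3 (-0.53), Ndufa3 (-0.40), Cox6a1 (-0.37) and Ndufc1 (-0.32), and Cox5a was not called in it (adjusted p = 0.0533). The transcript that each probe reads was not looked up here, and 8 members have a pseudogene of their own name in RefSeq whose transcripts the probes may also bind.

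Promoters of the members were compared with those of all genes, using RefSeq windows of assembly GRCm38.p6 that run from 250 bases before to 50 after the annotated start. Of the 91 members 76 had such a window. The motif of nuclear respiratory factor 1 (NRF1), an activator of many mitochondrial genes, was searched on both strands as GCGCA and GCGC with any 1 base between them. It was found for 20 of the 76 members (26.3%), against 9.6% of 10821 tested genes with a window. On both strands, the ETS motif CCGGAAG, which GABP binds, was found for 21 (27.6%, against 16.9%), and the YY1 motif AANATGGCG for 12 (15.8%, against 4.9%). At least 1 of the 3 was present for 57.9% of members and 27.4% of tested genes.

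The median change at 2 days was -0.12 for the 19 tested members with an NRF1 match and -0.10 for the 54 without, and -0.10 for the 43 with any match and -0.10 for the 30 without. A match is a run of letters and not a shown binding site, and the difference was not tested. The promoters of 4 called genes are printed 5′ to 3′ on the gene's strand, to show 1 called gene with no match beside 3 with matches in capitals. Of the 7 called genes 3 hold no match (Ndufb10, Cox5a and Cox7a2) and 4 hold at least 1. Ndufb10 lies at chr17:24724374-24724673 on the minus strand and holds no exact match to the 3 motifs. Runs that differ from a motif by 1 letter, such as gcgcaggcgt in this window, were not counted. Ndufaf4, at chr4:24897833-24898132 on the plus strand, holds an NRF1 match. So does Ndufa11, at chr17:56717512-56717811 on the plus strand. Ndufaf8, at chr11:120098684-120098983 on the plus strand, holds an ETS match before the start and a YY1 match after it.
Ndufb10: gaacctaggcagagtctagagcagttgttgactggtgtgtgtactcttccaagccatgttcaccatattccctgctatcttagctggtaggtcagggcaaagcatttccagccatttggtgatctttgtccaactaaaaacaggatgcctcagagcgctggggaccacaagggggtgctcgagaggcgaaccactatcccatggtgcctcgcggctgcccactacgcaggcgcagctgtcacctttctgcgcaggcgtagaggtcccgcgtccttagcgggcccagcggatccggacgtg
Ndufaf4: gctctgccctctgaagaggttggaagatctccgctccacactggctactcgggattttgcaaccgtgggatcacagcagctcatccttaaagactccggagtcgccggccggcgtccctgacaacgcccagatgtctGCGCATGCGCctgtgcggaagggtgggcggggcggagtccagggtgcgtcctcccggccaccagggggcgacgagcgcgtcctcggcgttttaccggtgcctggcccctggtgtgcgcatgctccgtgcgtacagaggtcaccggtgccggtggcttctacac
Ndufa11: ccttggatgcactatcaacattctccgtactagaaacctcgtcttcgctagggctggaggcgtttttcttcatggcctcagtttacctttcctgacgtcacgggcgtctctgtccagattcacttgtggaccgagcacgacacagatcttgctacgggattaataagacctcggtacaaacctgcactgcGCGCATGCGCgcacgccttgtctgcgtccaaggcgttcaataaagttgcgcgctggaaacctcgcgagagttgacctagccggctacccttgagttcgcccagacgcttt
Ndufaf8: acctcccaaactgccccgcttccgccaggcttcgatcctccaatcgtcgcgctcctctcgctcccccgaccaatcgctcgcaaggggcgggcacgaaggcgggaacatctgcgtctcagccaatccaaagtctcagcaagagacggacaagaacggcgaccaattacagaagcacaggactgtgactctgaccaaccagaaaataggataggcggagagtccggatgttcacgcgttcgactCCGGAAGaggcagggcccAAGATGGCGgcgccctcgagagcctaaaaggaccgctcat

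Several genes that work beside the members, and a subunit named outside the prefixes, were called at 2 days. Cytochrome c (Cycs), the mobile carrier between complexes III and IV, fell to 3138 ± 16.3 in 2 day cells, against 4861 ± 562 in untreated cells (SD, n = 2 each; log2 -0.63, SE 0.10, limma adjusted p = 8.90e-05). Cyc1, the cytochrome c1 subunit of complex III, whose symbol lies outside the prefixes, fell by 0.40 on the log2 scale (adjusted p = 0.0115). Atpif1, the inhibitor of the ATP synthase, had a value of 0.23 at 2 days and was not called (adjusted p = 0.157), but was called higher in 2 day than in 2 hour cells (0.33, adjusted p = 0.0237).

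Enzymes that feed the chain were called in part, and with so few genes a list the shares are a description. Of 17 tested genes of the tricarboxylic acid cycle 2 fell (11.8%; 5.92% of all genes were called lower) and 0 rose by limma, the malate dehydrogenase Mdh2 (-0.78) and the succinyl-CoA ligase subunit Suclg2 (-0.52), with a list median of -0.14. Of 16 other electron carriers and exchangers 4 fell (25%) and 0 rose, among them the proline dehydrogenase Prodh (-0.61), the choline dehydrogenase Chdh (-0.59) and Etfa (-0.37), a subunit of the flavoprotein that carries electrons from fatty acid oxidation. At 2 hours 1 gene of that list was called higher (6.25%; 1.76% of all genes). It was Etfdh (0.41, limma adjusted p = 0.0345), which passes those electrons to ubiquinone.

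Assembly factors named outside the prefixes were called lower at 2 days in a few cases. For complex I, 2 of 8 fell (25%; 5.92% of all genes were called lower), Ecsit (-0.38) and Dnajc30 (-0.35). For complexes III to V, 3 of 26 fell (11.5%), Fmc1 (-0.40), Cox20 (-0.33) and Ttc19 (-0.31). Between the times 2 of the 8 complex I factors were called higher (25%; 8.63% of all genes) and 1 lower (12.5%; 6.67% of all genes). Of the 26 others 0 were then called higher and 4 lower (15.4%). Of 11 genes of ubiquinone synthesis 0 were called by limma at 2 days, where 12.7% of all genes were. An unadjusted p under 0.05 was reached by 3 of them, and by 22.8% of all genes.

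Of 15 tested regulators of mitochondrial biogenesis 1 fell at 2 days (6.67%; 5.92% of all genes), the mitochondrial deacetylase Sirt3, with 506 ± 10.8 in 2 day cells and 829.6 ± 6.12 in untreated cells (SD, n = 2 each; log2 -0.71, limma adjusted p = 8.33e-06). The transcription factors Nrf1 (-0.08), Gabpa (0.04) and Tfam (0.01), which drive subunit genes or mitochondrial DNA transcription, and the coactivator Ppargc1a (-0.24) were not called. The 73 tested mitochondrial ribosomal proteins had a median of -0.002. Of these, 2 were higher (2.74%; 6.74% of all genes) and 1 lower (1.37%; 5.92% of all genes).

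The subunits encoded by mitochondrial DNA had 7 tested genes, of which 0 were called in any comparison by limma. Of all genes, 12.7% were called at 2 days. At 2 days 6 were below 0 and 1 had an unadjusted p under 0.05, COX2, a catalytic subunit of complex IV. It had 2768 and 2796 in 2 day cells, against 4756 and 2897 in untreated cells (log2 -0.42, adjusted p = 0.065), with a wide gap between the untreated arrays. CYTB, the mitochondrial subunit of complex III, had 31278 and 31550.0 in 2 day cells, against 33435 and 34743 in untreated cells (log2 -0.12).

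**Figure D4:**
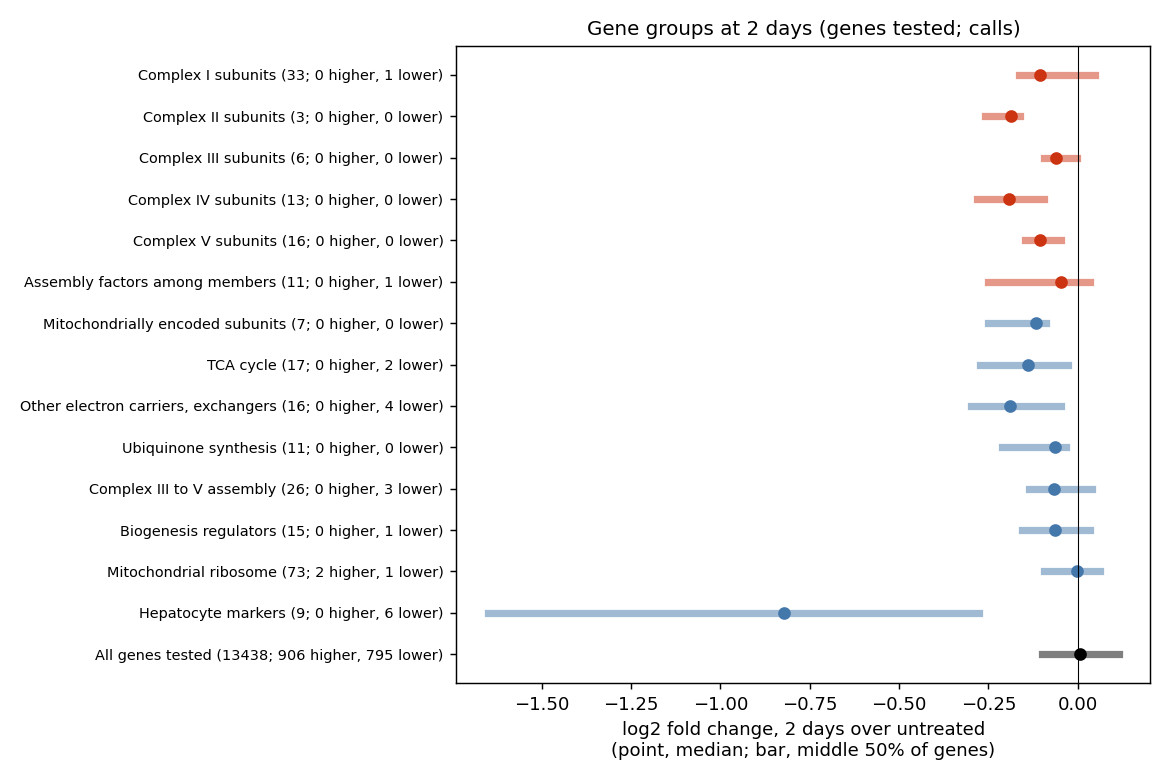
Median (points) and middle 50% (bars) of log2 fold changes at 2 days over untreated for the complexes and assembly factors (red), neighbouring gene lists (blue) and all genes (black), with the number tested and called in each label. Complex medians lie between -0.19 and -0.06, those of the carriers and the tricarboxylic acid cycle at -0.19 and -0.14, and that of the hepatocyte markers at -0.82.

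Hepatocyte markers fell at 2 days. Of 9 tested markers 6 fell (66.7%; 5.92% of all genes were called lower). The summed intensity of the 10 marker genes on the array was 57790.2 to 60742.5 in 2 day cells, against 103257 to 108855 in untreated cells. Markers of other cell types moved unevenly, and their sums likewise include dim genes that were not tested. Of 8 tested macrophage markers the 3 complement genes C1qa, C1qb and C1qc rose (37.5%; 6.74% of all genes were called higher). The sum of 10 macrophage genes was 1749 to 1893 in 2 day cells, against 1523 to 1611 in untreated cells. Of 5 tested stellate cell markers 1 rose and 1 fell (20% each). The sum of 8 stellate genes was 3184 to 3939 in 2 day cells, against 2551 to 3049 in untreated cells. Of 3 tested bile duct markers 1 rose (33.3%), Sox9 (log2 1.78). The sum of 5 bile duct genes was 3435 to 3696 in 2 day cells, against 1446 to 1447 in untreated cells. Of 8 tested endothelial markers 1 fell (12.5%). The sum of 9 endothelial genes was 1717 to 1757 in 2 day cells, against 1749.9 to 1876 in untreated cells. The defining markers Adgre1, Pecam1 and Cd3e stayed between means of 134 and 199.6, near the array medians. In RNA of whole cultures fewer cells of a type and less RNA per cell cannot be told apart, and the part of these shifts in the members' values was not tested.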

How the data were processed

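Biotinylated cRNA was hybridised to Illumina mouse arrays, per the labels' protocols. The authors deposited 1 intensity per probe and array for 45281 probes. The deposited intensity columns share 1 distribution (96.54 to 47615.3; medians 143.16 to 143.22), as after quantile normalization, and hold no value near 0. Background is therefore included, and fold changes of dim probes are understated. The authors' software was not given in the sources used here. Neither scan batches nor probe detection values entered the fits.

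Probes were named through the platform annotation (34885 with 1 symbol, 18 with several, 10378 not listed), updated through entrez identifiers for 34807 with RefSeq symbols of GRCm38.p6. Intensities were taken to log2. A probe passed when 2 arrays exceeded that array's 50th percentile (21425 passing probes with 1 symbol), and the probe with the highest mean represented a gene. The 6 arrays were fitted together by group with limma (version 3.58.1, R 4.3.3; lmFit, eBayes; residual degrees of freedom 3, prior 21.2). Much of each gene's spread was thus borrowed from all genes.

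Members and lists were chosen with earlier results of these data known, and the mitochondrially encoded list was added on reading the annotation. Members were all accounted for. Named with values were called members, the highest and lowest of each complex, and up to 4 called genes per list; other members and list genes named were chosen after their values were seen. On simulated data of the 2 day comparison (13438 genes, 200 changed, 10 runs), 89.9% of changes of 0.5 and 100% of changes of 1 were recovered, with 5.43% false calls. Alternatives covered scaling, offset, background, filter, probe rule, variance model, block, threshold and each array.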

Additional observations from a re-analysis of the deposited data

Results flagged for a closer look

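The 2 exposure times differed, by limma's test of 2 days against 2 hours, for 7 members. The log2 changes between the times were -0.51 for Ndufb10, -0.51 for Cox7a2, -0.41 for Ndufaf8, -0.37 for Ndufa11, -0.35 for Ndufaf4, -0.35 for Ndufa5 and -0.29 for Cox5a. Each group holds 2 arrays, too few to test a single array as an outlier.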

How the results depend on the processing

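With median centring, repeated quantile normalization, no filter, robust variances or a fit of the compared groups alone, 2 members were called lower at 2 days and 7 or 8 between the times. Cyclic loess gave 8 and 12, with 829 and 989 of all genes called lower. With normexp 0 and 0 were called, and 95, 654 and 810 genes in all at 2 hours, at 2 days and between the times, against 379, 1701 and 2056. At 2 days an offset of 16 gave 5 members lower and 1 higher, the mean of a gene's probes 5 lower (and 250 genes at 2 hours), every probe on its own 4 lower and 1 higher (and 10 lower and 1 higher between the times), trended variances 4 lower and 1 higher, and the 70th percentile filter 3 lower and 1 higher. With adjusted p under 0.1 there were 13 lower and 1 higher at 2 days and 12 lower between the times. With adjusted p under 0.01 there were 2 and 2 lower, and 229, 1075 and 1330 genes. At 2 hours 0 members were called under any of these. The cause of these differences was not tested, apart from the thresholds.

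Leaving out 1 array gave 187 to 384 genes at 2 hours, 1150 to 1536 at 2 days and 1270 to 2155 between the times, with 2 to 8 members lower and 0 to 1 higher at 2 days, and 2 to 8 lower between the times; a lone array is then assumed to vary like the others. The replicate block gave 363, 1638 and 2007 genes, and 0, 2 and 6 members lower, with Cox5a lost between the times. Same-numbered arrays share only a number (correlation of deviations -0.148, -0.075 and 0.036). None of the 7 called members changed sign under any of the 20 alternatives. In the main fit the smallest changes called among all genes were 0.36 at 2 hours, 0.30 at 2 days and 0.29 between the times. Some alternatives called smaller ones, such as Ndufa11 at 2 days with probes averaged (-0.27). With 2 arrays a group, smaller shifts are not read as absent.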

Other observations

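Of 6 tested mitochondrial antioxidant genes, the superoxide dismutase Sod2 rose at 2 hours (0.63, limma adjusted p = 0.000278), with 10184 and 11757 in 2 hour cells, against 7117 and 7042 in untreated cells. That is 16.7% of the list, where 1.76% of all genes were called higher. At 2 days Sod2 was at 0.17 and not called. The phospholipid hydroperoxidase Gpx4 rose at 2 days (0.36, limma adjusted p = 0.0177), again 16.7% of the list, against 6.74% of all genes.

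Of 11 tested genes of hypoxia and glycolysis 5 fell at 2 days (45.5%; 5.92% of all genes) and 2 rose (18.2%; 6.74% of all genes). The growth factor Vegfa had a log2 change of -1.10. The pyruvate dehydrogenase kinases Pdk1 and Pdk2, which hold pyruvate back from the tricarboxylic acid cycle, fell by 0.51 and 0.48 on that scale. Egln3, a prolyl hydroxylase, rose at 2 hours (0.90) and was also higher at 2 days (0.52).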
